A study of Ovis aries with 6 samples.

Results

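The loci described here are the unnamed mature microRNA (miRNA) candidates of 20 nt or longer in small RNA sequencing of sheep longissimus muscle, the long muscle of the back. They were taken from the count table by 4 properties of the row. The row was a locus predicted on the sheep genome, it carried no known miRNA name, it stood for the mature arm of its hairpin, and its sequence had 20 or more bases. A further 5 loci that match transfer RNA were left out, and 1625 of the 11161 rows remained. Of all 3662 unnamed mature loci, 2032 were shorter than 20 nt, and 436 of those had 19 bases, just outside the limit. Among the members, 408 had 20 bases, 510 had 21, 374 had 22, 187 had 23 and 146 had 24.

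The study compared 2 sheep breeds, the Qianhua Mutton Merino (written QHMM) and the Small Tail Han (written STH), each with 3 libraries of longissimus muscle from sheep kept under natural conditions. No agent, allele or age was named for either breed. The libraries were selected for size on a gel and read from a single end on an Ion Torrent instrument. The labels number the libraries but do not state that each came from its own animal, so p-values measure the spread between libraries, which may in part be technical.

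A miRNA is cut from a hairpin in a longer transcript. The hairpin gives a duplex of 2 arms, and the arm that stays in the Argonaute protein is called mature, while the other is called star. Bases 2 to 8 of the mature arm are the seed, which pairs with target messenger RNAs. Prediction programs search small RNA reads for hairpins, and they can also pick up fragments of ribosomal RNA, transfer RNA and repeats that happen to fold. A special class, the mirtrons, is spliced rather than cut out of introns, so that the arm at the intron's end finishes with the AG of the splice acceptor.

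The sequences below are those of the 10 loci with the highest mean level, shown because they carry most of the counts. The seed is in capitals. Names are those of the count table, where the first part is the chromosome.
chr7_18642_mature: aAAACACGaacaaacttttcg
chr5_14702_mature: tACTTGGAtgggagaccgcctg
chrx_45080_mature: aGAGGTAAaaaattgatttgac
chrx_45954_mature: tACCTGGTtgatcttgccag
chr13_27435_mature: aTCTCAGGttcgtcagcccgca
chr8_20184_mature: gTCTACGGccacaccaccctgaac
chr24_41356_mature: aCCATCTGtgggattatgac
chr17_32844_mature: gATGAGGCtcagcgagccctg
chr17_33469_mature: gATGAGGCtcagcgagccctg
chr24_42184_mature: tGCGGGATctttagttgtggcg

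The next sequences are those of the 5 loci that passed the test between breeds, again with the seed in capitals. The first 4 were higher in STH and the last was higher in QHMM.
chrx_45982_mature: tGATTGGTacttcttagagtg
chr13_28207_mature: aAAAAGTTtgttcgaatttttc
chr9_21750_mature: aCCCTGATtgctcctatctgat
chr16_31964_mature: aGCAGCGTggatttcagttggc
chr23_40740_mature: tCAAAAGTtttaaagcagtc

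Total counts per library ran from 8062231 to 11282332. Levels are given as CPM, counts per 1000000 counts of a library after keeping 1 row per name. The labelled tissue was checked against known miRNAs: all 5 muscle fibre markers were counted in every library, with a summed level of 451350 to 547593 CPM. Summed red blood cell markers were at 18967 to 84308 CPM in QHMM, where library 3 was the highest, and at 7299 to 13838 CPM in STH. Summed leukocyte markers were at 1790 to 1966 CPM in QHMM and at 1189 to 1465 CPM in STH, while vessel wall markers ran from 48039 to 84381 CPM over all libraries and epithelial markers from 4.05 to 32.1 CPM, with 3 of those 6 counted in every library. A lower share of a cell type and less RNA per cell cannot be told apart in such tissue samples.

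The members were many and nearly all rare. Together they held 265467 counts, or 0.455% of all counts. The shorter unnamed loci held 2.77% of all counts and the predicted loci with a known name held 64.9%. The median member had 7 counts summed over the 6 libraries, and 1099 of the 1625 members (67.6%) had at most 10. Only 112 reached 100 counts and 21 reached 1000, while 16 had no count in any library. A single count in a library is at the limit of detection, and a locus without a count was not detectable at this depth rather than absent.

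A count in every library was found for 383 members (23.6%), and 94 had at least 10 counts in every library. The 3 QHMM libraries held a count for 943, 854 and 958 members, and the 3 STH libraries for 1027, 1039 and 1230. The breeds did not overlap in this number. The whole table had the same order, with 5207, 4661 and 5544 rows counted in QHMM and 5742, 5865 and 7134 in STH. With at least 10 counts required, the breeds overlapped, at 176, 129 and 167 members in QHMM and 158, 149 and 179 in STH.

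The share of a library's counts at the members was 0.481%, 0.407% and 0.464% in QHMM and 0.441%, 0.393% and 0.520% in STH. The means were 0.451% ± 0.038 in QHMM and 0.451% ± 0.064 in STH (SD, n = 3 each), and the ranges overlapped. An exact permutation test with 3 libraries against 3 cannot go below a two-sided p of 0.1, so none was run on the share. Counts were seen in QHMM libraries only for 90 members, the highest with 7 counts in all. They were seen in STH libraries only for 250 members, of which the highest, chrx_45982_mature, had 35 counts and the next 13. The share of all rows seen in QHMM only or in STH only was not computed. Over the whole table too, every STH library had more rows counted than any QHMM library. The 90 and 250 are therefore not read as a result about the members.

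**Figure D1:**
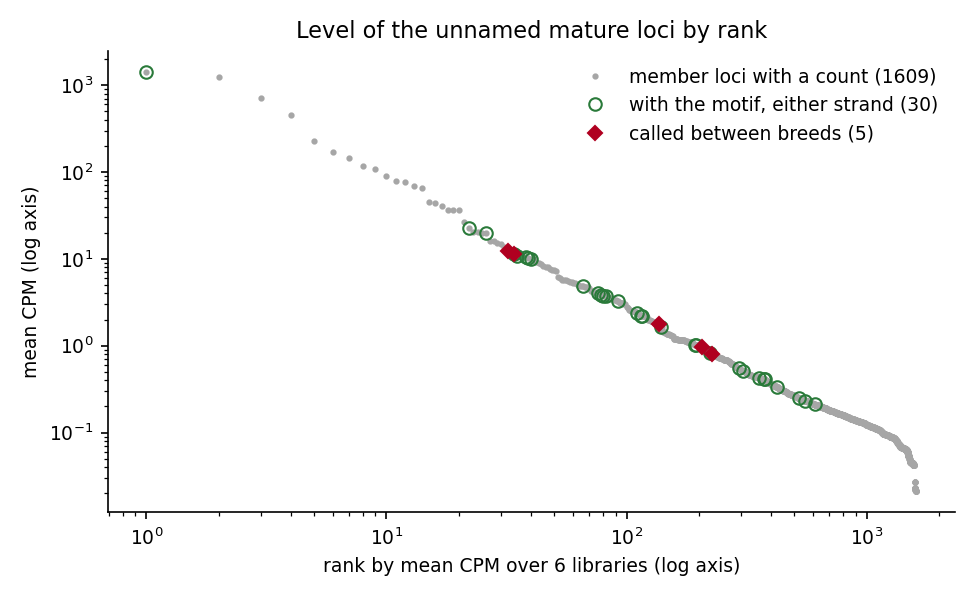
Mean level of each member with a count, in CPM over the 6 libraries (log axis), against its rank (log axis). Open circles mark the 30 members with the motif described in the text and diamonds the 5 members called between breeds; the levels fall steeply from 1428 CPM at rank 1, and the called members sit between ranks 32 and 227.

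The counts were concentrated in a few loci. The top 2 members held 42.5%, 42.2% and 45.4% of the member counts across QHMM and 40.1%, 35.8% and 48.0% in the STH libraries. The top 10 held between 72.0% and 78.3% in each library.

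The highest locus, chr7_18642_mature, had 10296, 7664 and 9214 counts across QHMM and 12423, 8024 and 12632 across STH. Its level was 1364, 1375 and 1238 CPM in QHMM and 1697, 1300 and 1593 CPM in STH. The breeds overlapped. Its star arm held 7094 counts against 60253 on the mature arm, and both arms were counted in every library. Chromosome 7 held 25.1% of all member counts, most of them at this locus.

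The third locus by level, chrx_45080_mature, lies on the X chromosome and also had counts on both arms. It was at 636, 811 and 481 CPM in QHMM and 751, 844 and 785 CPM in STH, so QHMM library 3 was the lowest and QHMM library 2 lay within the STH range. Its star arm held 3671 counts and its mature arm 29835. A row with the same seed and a known name was not found for chr7_18642_mature or for chrx_45080_mature.

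The fifth locus, chr13_27435_mature, was at 285, 307 and 154 CPM in QHMM and 198, 210 and 206 CPM in STH. The 3 STH libraries lay close together, and the QHMM libraries lay on both sides of them. The tenth, chr24_42184_mature, was at 89.8, 55.8 and 66.5 CPM in QHMM and 155, 88.6 and 77.0 CPM in STH. Its highest library was STH library 1, and the breeds overlapped.

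The pair on chromosome 17, chr17_32844_mature and chr17_33469_mature, had the same sequence and nearly equal arms. The first had 756, 590 and 736 counts across QHMM and 1108, 842 and 835 across STH, and the second had 677, 553 and 635 in the QHMM libraries and 1065, 813 and 819 in the STH libraries. The star arms held 4523 and 4701 counts against 4867 and 4562 on the mature arms. Mature and star of this pair were complementary over a run of 20 bases, with a predicted duplex energy of -45.2 kcal/mol, where the median member had a run of 5 bases and -16.7 kcal/mol. At the first locus QHMM library 2 (106 CPM) lay above STH library 3 (105 CPM). At the second every STH library was above every QHMM library in CPM, an order that did not hold once the libraries were scaled as for the test below (111 CPM in QHMM library 2 and 100.3 CPM in STH library 3). The star sequence of both loci is shown to make the pairing visible.
chr17_32844_star: agggctcgctgagcctcatct

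The other 4 of the 10 highest loci resemble ribosomal RNA. From general knowledge of these RNAs, and with no reference sequence compared here, chr5_14702_mature and chr8_20184_mature resemble stretches of 5S ribosomal RNA, chrx_45954_mature resembles the start of 18S ribosomal RNA and chr24_41356_mature resembles a stretch of 28S ribosomal RNA. These RNAs are parts of the ribosome and are present in every cell. The group was put together after its values were seen.

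The second locus by level, chr5_14702_mature, had 10713, 6196 and 12116 counts across QHMM and 5002, 4191 and 15506 across STH. In CPM these were 1420, 1112 and 1628 in the QHMM libraries and 683, 679 and 1955 in the STH libraries. STH library 3 was the highest of all and the other STH libraries were the lowest, so the spread within STH was larger than the difference between breeds. The star arm of this locus held 73309 counts, more than the 53724 on the mature arm. The 18S-like locus was also highest in library 3 within STH, at 230, 296 and 562 CPM. It stood at 603, 358 and 649 CPM in QHMM. Its star arm held 2 counts in all against 19343 on the mature arm.

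The other 5S-like locus, chr8_20184_mature, was at 149, 120 and 187 CPM in QHMM and 158, 184 and 220 CPM in STH. The 28S-like locus was at 119, 146 and 174 CPM in QHMM and 138, 116 and 181 CPM in STH. STH library 3 was again the highest at both. The 4 loci together took 34.98%, 29.5% and 41.8% of the member counts across QHMM and 20.4%, 23.1% and 39.5% in the STH libraries.

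**Figure D2:**
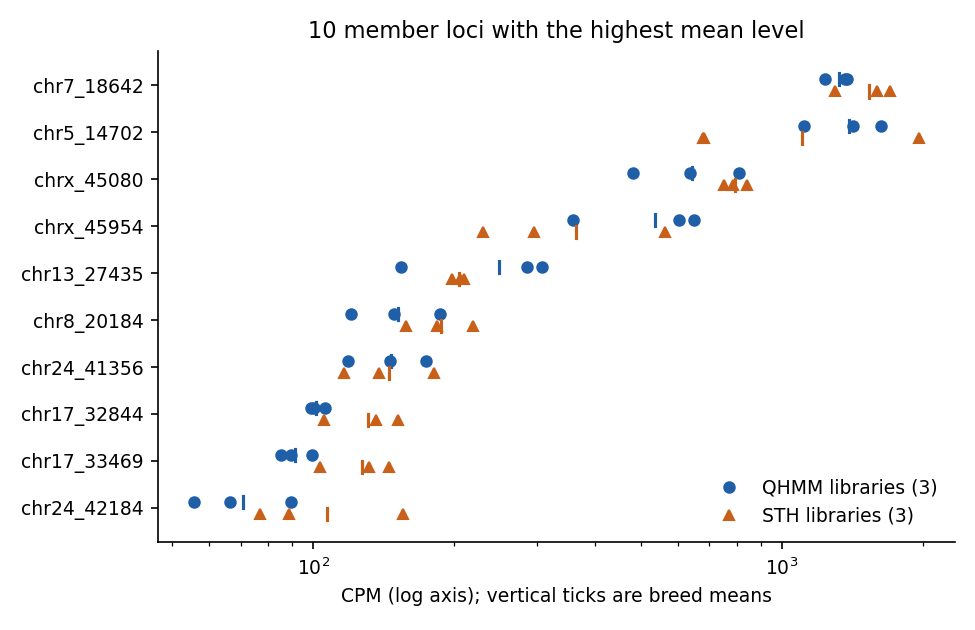
CPM (log axis) of the 10 members with the highest mean level in each of the 3 QHMM libraries (circles) and the 3 STH libraries (triangles), with a tick at each breed's mean. At chr5_14702 and chrx_45954 the STH libraries spread the most, from 679 to 1955 CPM and from 230 to 562 CPM, and the breeds overlap at every locus but chr17_33469, where they overlap too once scaled as for the test.

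The 11 members at ranks 11 to 21 completed the loci with at least 1000 counts. In these, 7 had fewer than 10 counts on the star arm, among them chr11_24896_mature and chr7_18896_mature, while chrx_44912_mature had counts on both arms.
chr11_24896_mature: gGTTAGCCcggccgctgccggg
chrx_44912_mature: cCTCAGTCagccttgtggatg
chr7_18896_mature: gTCTGGTGggaaggaaggga

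At chr11_24896_mature the level was 109, 87.7 and 110 CPM in QHMM and 51.8, 41.1 and 77.3 CPM in STH. Every QHMM library was above every STH library, and the star arm held 2 counts against 3373 on the mature arm. At chr7_18896_mature it was 110, 63.3 and 87.5 CPM in QHMM and 47.9, 56.5 and 45.1 CPM in STH, again without overlap. At chrx_44912_mature it was 82.6, 65.7 and 57.2 CPM in QHMM and 94.9, 90.9 and 68.3 CPM in STH, and the breeds overlapped. The star arm of chrx_44912_mature held 332 counts against 3213.

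A repeated sequence motif was found in several of the better counted members. The motif GAANNAACNTT, in which N is any base, was read from the members after their sequences and levels had been seen. Its reverse strand reads AANGTTNNTTC, and both strands were searched in every row. It was found in 30 members (1.85%), 26 on the forward and 4 on the reverse strand, with 22 distinct sequences on 17 chromosomes. The same search found it in 0.689% of the unnamed mature loci under 20 nt, 0.547% of the unnamed star arms and 0.0648% of the rows of known miRNAs, and in none of the 578 predicted loci with a known name. In cattle, miRNAs of the large ruminant family miR-2284 and miR-2285 carry letters of this kind, as general knowledge has it, and the known names of this table come from sheep, rat, mouse and human only. No sequence of that family was compared here.

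The following members are shown with the motif in capitals. The first 5 hold it on the forward strand and the last 4 on the reverse strand.
chr7_18642_mature: aaaacacGAACAAACTTTtcg
chr10_22537_mature: aaaatccGAACGAACTTTttg
chr18_35370_mature: aaacccGAACGAACTTTtggg
chr19_35759_mature: aaacccGAATGAACTTTttg
chrx_44939_mature: aaaacctGAATGAACCTTttg
chr13_28207_mature: aaAAAGTTTGTTCgaatttttc
chr16_32155_mature: tgaAAAGTTTGTTCgggttt
chr26_43445_mature: aAAAGTTCATTCaggtttttc
chr7_18866_mature: aaAAGGTTCATTCggattttt

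Together these 30 members held 65884 counts, or 24.8% of the member counts, of which chr7_18642_mature gave all but 5631. Their median total was 100 counts, against 7 over all members, and 26 of the 30 had a count in every library. The motif was read after levels had been seen, so this contrast may follow from how it was chosen. The second highest total was 947 counts and the lowest was 9. All 30 had a counted star arm, and in 6 the star arm held more counts than the mature arm. The seed of chr13_28207_mature was shared by 20 other rows of the table with 7848 counts in all, the star arm of chr7_18642_mature among them.

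Several of these loci had identical sequences. The sequence of chr18_35370_mature was also that of chr10_23312_mature, chr23_40423_mature and chr7_19172_mature, and their totals were 453, 442, 421 and 437 counts. The sequence of chr10_22537_mature (947 counts) was also that of its neighbour in number, chr10_22538_mature (833 counts). Reads of 1 sequence cannot be assigned to 1 of several loci, and how the counting shared them is not given in the sources used here. Over all members, 281 shared their sequence with another member, at 135 sequences, which left 1479 distinct sequences.

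The locus chr10_22537_mature had 227, 116 and 107 counts across QHMM and 194, 144 and 159 across STH, and chr10_22538_mature had 212, 113 and 100 in the QHMM libraries and 130, 143 and 135 in the STH libraries. Both overlapped between the breeds. At chr18_35370_mature the counts were 81, 32 and 54 in the QHMM libraries and 82, 112 and 92 in the STH libraries, and every STH library was above every QHMM library in CPM. The breeds overlapped at the other 3 loci of this sequence. Their STH libraries began at 9.01, 8.47 and 5.87 CPM, and their QHMM libraries reached 10.3, 11.5 and 11.5 CPM at chr10_23312_mature, chr7_19172_mature and chr23_40423_mature. Summed over the 4 reverse-strand members, the level was 15.8, 4.13 and 9.14 CPM in QHMM and 32.6, 35.6 and 22.95 CPM in STH. Summed over the 26 forward-strand members without chr7_18642_mature, it was 137, 81.6 and 79.4 CPM in QHMM and 111, 151 and 120 CPM in STH. The sums over the reverse strand did not overlap between the breeds and those over the forward strand did. The reverse sum kept its highest locus, chr13_28207_mature, which held 477 of the 851 reverse-strand counts. Of the 3 reverse-strand members tested below, 2 did not overlap between the breeds, while chr26_43445_mature did.

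Each of the 1625 members had a row for its star arm, of which 1494 (91.9%) held at least 1 count and 324 at least 10. Counts on both arms are what cleavage of a hairpin leaves behind, but low counts can also come from other RNA. In 410 members (25.2%) the star arm held more counts than the mature arm, so the labels mature and star did not always follow the counts. Among the 112 members with at least 100 counts, 65 had at least 10 counts on the star arm and 2 had none. A complementary run of 18 or more bases between the arms was found in 27 members. Predicted duplex energies ran from -50.9 to -1.4 kcal/mol, with quartiles of -22.5 and -11.4 kcal/mol.

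In 7 members the sequence was the reverse complement of another member's over at least 17 bases. These were a group of 3 on chromosome 1 and a pair each on chromosomes 7 and 16. Both strands of an inverted repeat can give such pairs. The pair on chromosome 7 is shown because its values return in the comparison of the breeds.
chr7_19621_mature: cctgtcctcctgtctcagaag
chr7_18604_mature: tctgagacaggaggacaggtg

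Many members had the letters of an intron's end. The last 3 bases were CAG in 156 members (9.6%), against 3.84% of the unnamed mature loci under 20 nt, 3.21% of the unnamed star arms, 5.88% of the predicted loci with a known name and 8.17% of the rows of known miRNAs. The stretch before a splice acceptor is known to be rich in C and T. These 156 members were 65.2% C and T at the median, against 47.6% in the other members, and 103 of them had at least 60%. The same medians were 69.6% and 47.8% in the rows of known miRNAs. They were 46.7% and 50% in the predicted loci with a known name. In the unnamed loci they were 41.2% and 42.1% under 20 nt, and 50% and 52.4% on star arms. The star arms of the 156 members began with G or TG in 68.6%, against 35.9% of the other members' star arms. An intron begins with GT in nearly all genes, but the share counts a first G or TG. A G there can also follow from pairing with the C of CAG, so the share was no separate sign of an intron. No test was run on these shares, since loci of 1 repeat or gene are not independent.

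The 7 members of this kind with the highest level after the 18S-like locus chrx_45954_mature, which also ends in CAG, are given with the last 3 bases in capitals. Not all of them are rich in C and T.
chr3_12188_mature: ttgcttccttgtgtccaCAG
chr21_38819_mature: tccgacccctccacccgCAG
chr1_817_mature: cgctaaccagctccggctcCAG
chr13_28440_mature: actcaccacccgctcccctCAG
chrx_45480_mature: actgaagtgacttagcagcagCAG
chr9_21081_mature: tgactgtgccctgcctgcCAG
chr24_41613_mature: acgcacccctcactcctcCAG

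At chr3_12188_mature the level was 33.5, 26.9 and 23.6 CPM in QHMM and 25.4, 23.8 and 27.6 CPM in STH, with 269 counts on the star arm against 1131 on the mature arm. At chr21_38819_mature it was 17.6, 12.7 and 23.8 CPM in QHMM and 15.02, 11.2 and 17.1 CPM in STH, with 160 counts on the star arm against 696. The breeds overlapped at both. The 156 members held 9.41% of the member counts, most of them at the 18S-like locus, and their median total was 11 counts. Whether any of them ends at an intron's end was not analysed here.

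**Figure D3:**
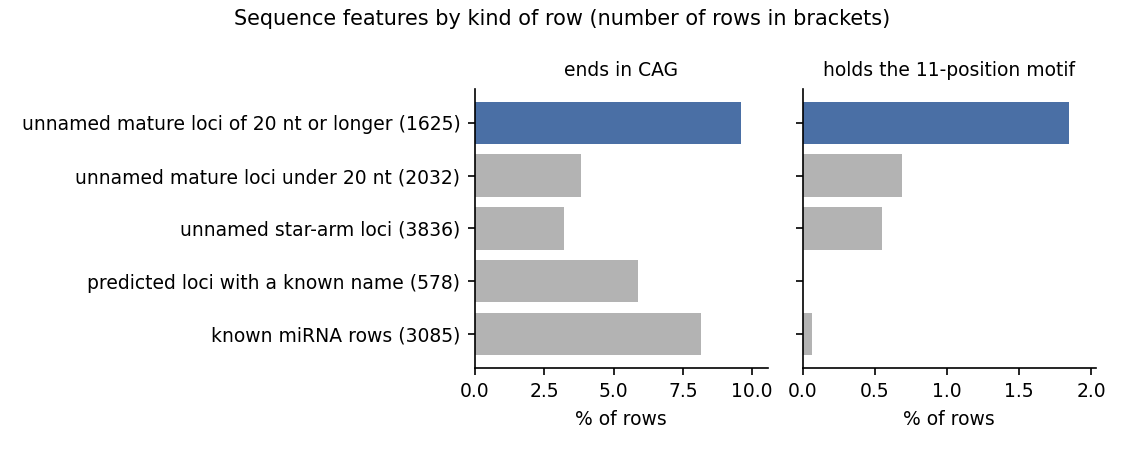
Share of rows (%) that end in CAG (left) and that hold the motif on either strand (right), for the members and for 4 other kinds of row, with the number of rows in brackets. The members have the highest share of both, 9.6% and 1.85%, and the known miRNA rows come next for CAG with 8.17%. The motif was read from the members themselves.

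The first base of a member was A in 33.7%, T in 31.1%, G in 20.4% and C in 14.8%. T, which stands for the U of the RNA and is preferred by Argonaute, opened 39.0% of the rows of known miRNAs and 20.7% of the shorter unnamed loci. Among the 112 members with at least 100 counts it opened 33.9%. The members had 1333 distinct seeds. A row with a known name had the same seed in 367 members (22.6%), against 30.5% of the shorter unnamed loci, and the known names covered 14.6% of all possible words of 7 bases. In 18 members the seed was that of a sheep name.

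No member was identical to a sequence with a known name, and 2 shared a run of 17 or more bases with one at a start shifted by at most 2 bases. Within 2 edits of a named row with at least 100 counts there were 9 members, found by a search added after the data were seen, in which end bases of the longer sequence that had no partner were not counted as edits. The longest run, of 21 bases, was that of chr7_19334_mature with mouse miR-574-5p, 1 edit away, and the member had 1718 counts against 119 of the named row, 14.4 times as many. The similar chr2_6607_mature, also 1 edit from this named row, had 1847 counts. By contrast chr6_17205_mature, 1 edit from the muscle miRNA miR-206-3p over the aligned stretch and shorter at its start, had 373 counts against 1502422 of the named row. The others resembled miR-1-3p, let-7b, miR-378i and miR-3960.
chr7_19334_mature: cgagtgtgtgtgtgtgagtgtg
mmu-miR-574-5p: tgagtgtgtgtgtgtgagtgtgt
chr6_17205_mature: gaatgataaggaagtgtgtg
rno-miR-206-3p: tggaatgtaaggaagtgtgtg

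A search of up to 3 edits, counted in the same way, found 3 members near the transfer RNA loci that the rule leaves out, each 2 edits away. These were chr8_20538_mature with 207 counts, chr14_28712_mature with 186 and chr3_9012_mature with 102. They remained members, since the rule names the loci to leave out. Other transfer RNAs were not searched for.

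The 2 breeds were compared with edgeR's quasi-likelihood test on all names, scaled by TMM (trimmed mean of M-values). Log2 fold changes are QHMM over STH, so that a negative value is a higher level in STH. A name entered the test where at least 3 libraries reached 1.35 CPM, the cut of edgeR's default filter (10 counts in a library of median size). Of the 1625 members, 156 (9.6%) passed and 1469 did not. A member that reached the filter through 1 breed alone had to differ. This held for 4 members that passed through STH alone and 2 through QHMM alone, and 3 of the 5 members called below were among these 6, so the counts of calls describe the tested loci only.

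Of the 156 tested members, 5 (3.21%) were called at an adjusted p under 0.05, against 2.2% of all 1274 names tested. The 4 members higher in STH were 2.56% of those tested, against 1.88% of all names, and the 1 member higher in QHMM was 0.641%, against 0.314%. The 3 libraries of 1 breed lay wholly above those of the other at 34 members (21.8%), 18 of them higher in QHMM and 16 in STH, against 17.7% of all names. The median log2 fold change was -0.05 over the members and 0.03 over all names. With 5 calls in all, these shares are near those of all names.

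**Figure D4:**
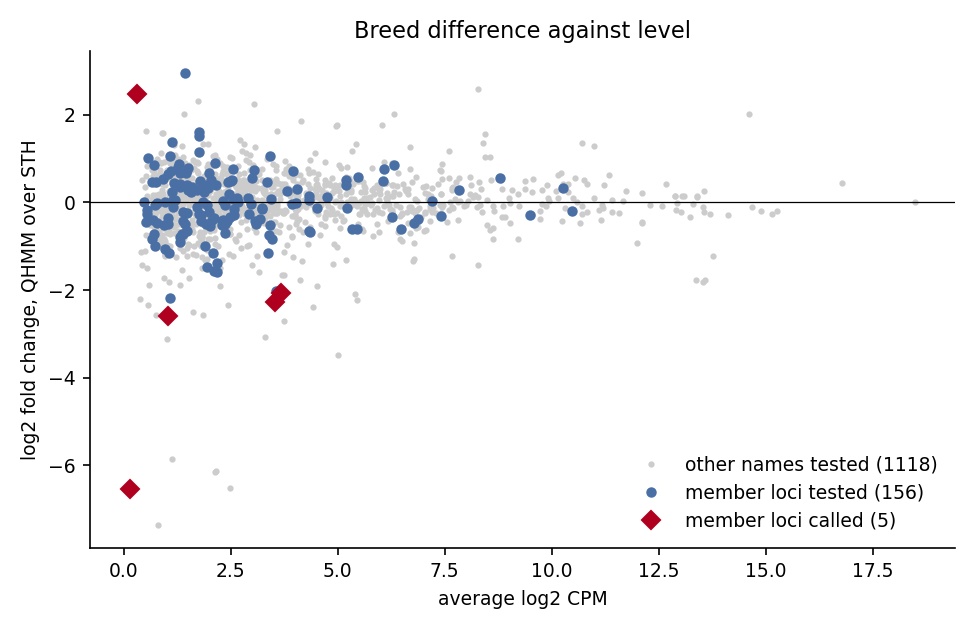
Log2 fold change of QHMM over STH against average log2 CPM for all 1274 names tested; the 156 members are dark points and the 5 called members are diamonds. The members called lie at low or middle levels and the 10 highest members lie between -0.61 and 0.55; the value near -6.5 belongs to chrx_45982, which has no count in QHMM, and depends on the prior count of the fit.

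The member with the smallest p, chrx_45982_mature, had no count in any QHMM library and 12, 9 and 14 counts in STH. These STH counts were 1.64, 1.46 and 1.77 CPM, close together. With a floor of 3 counts over the QHMM group, the observed STH level was 11.2-fold higher (adjusted p = 0.00183 by edgeR). That fold takes the 35 STH counts as exact. The locus passed the filter through STH alone, the breed where it is high, so its p and the lack of overlap are no independent support. Its star arm had 1 count in all. No other row of the table had its seed, and the longest run it shared with any row was 13 bases, with rat miR-547-3p, a miRNA that had 1 count. Without STH library 3 the adjusted p was 0.0638, and each other library could be left out with the call kept.

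The reverse-strand motif member chr13_28207_mature had 53, 8 and 26 counts across QHMM and 154, 139 and 97 across STH. Its lowest STH library stood at 12.2 CPM and its highest QHMM library at 7.02 CPM. The log2 fold change was -2.27 (SE 0.46, adjusted p = 0.0232 by edgeR), and the level was higher in STH in all 3 libraries. The adjusted p was 0.0579 without QHMM library 2, 0.129 without QHMM library 3, 0.0878 without STH library 2 and 0.0514 with the replicate number as a block.

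At chr9_21750_mature the counts were 29, 26 and 44 in the QHMM libraries and 69, 137 and 226 in the STH libraries. The STH libraries spread from 9.42 to 28.5 CPM, and the QHMM libraries lay between 3.84 and 5.91 CPM. The log2 fold change was -2.06 (SE 0.43, adjusted p = 0.0253 by edgeR). The star arm held 6 counts against 531. The call was lost without any 1 of QHMM libraries 1, 2 and 3 (adjusted p = 0.0582, 0.0768 and 0.0947) or without STH library 2 or 3 (adjusted p = 0.0889 and 0.152).

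At chr16_31964_mature the counts were 4, 4 and 2 in the QHMM libraries and 26, 24 and 13 in the STH libraries. Its log2 fold change was -2.59 (SE 0.56, adjusted p = 0.0321 by edgeR). This locus too passed the filter through STH alone and had to differ. The star arm held 8 counts against 73, and no other row had its seed. The call was lost without any library other than STH library 3, with adjusted p from 0.0557 to 0.151. By library these were 0.0616, 0.0557 and 0.151 without QHMM libraries 1, 2 and 3, and 0.0813 and 0.125 without STH libraries 1 and 2.

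The member higher in QHMM, chr23_40740_mature, had 13, 9 and 12 counts across QHMM and 1, 3 and 2 across STH. The QHMM libraries were at 1.72, 1.61 and 1.61 CPM, and no STH library was above 0.486 CPM. The log2 fold change was 2.46 (SE 0.55, adjusted p = 0.0368 by edgeR). The locus passed the filter through QHMM alone and had to differ. The call was lost without each of the 6 libraries (0.134, 0.180 and 0.185 without QHMM libraries 1, 2 and 3, and 0.209, 0.0996 and 0.215 without STH libraries 1, 2 and 3), with the replicate number as a block (0.0900), with no filter on low counts (0.0833) and with DESeq2 (0.0885).

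The breeds also differed in other summed markers without overlap: red blood cell and leukocyte markers were higher in every QHMM library, as given above. Their part in the 5 calls was not tested. Of the 5, 4 were higher in STH and chr23_40740_mature was higher in QHMM, and direction alone does not show whether the markers had a part.

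**Figure D5:**
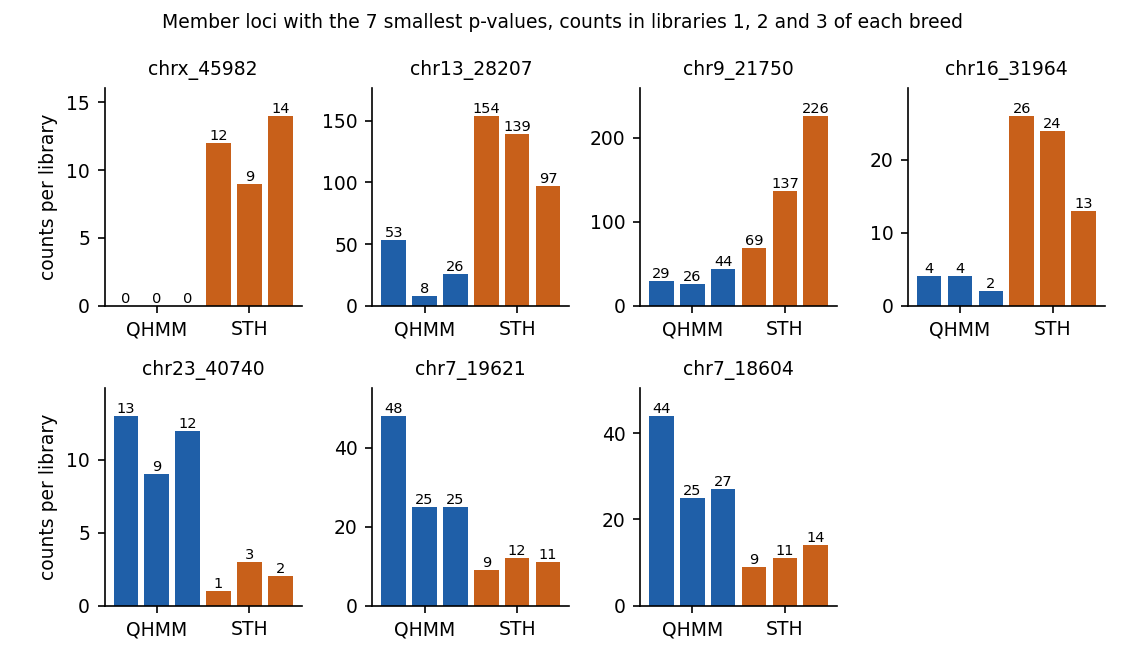
Counts in libraries 1, 2 and 3 of QHMM (left bars) and STH (right bars) for the 7 members with the smallest p-values, each on its own linear axis from 0. The first 5 passed the test, and 3 of these had reached the filter through 1 breed alone. In all 7 the lowest library of the higher breed is above the highest library of the other. The 7 were picked by small p, which favours such a lack of overlap, so it is no separate support. Of all names tested, 17.7% did not overlap.

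Just beyond the threshold stood the opposite-strand pair of chromosome 7. The locus chr7_19621_mature had 48, 25 and 25 counts across QHMM and 9, 12 and 11 across STH, and chr7_18604_mature had 44, 25 and 27 in the QHMM libraries and 9, 11 and 14 in the STH libraries. Their log2 fold changes were 1.62 (SE 0.43) and 1.52 (SE 0.41), with adjusted p of 0.0782 and 0.0797 by edgeR. Both were higher in every QHMM library than in any STH library. Their star arms did not show this. The star arm of chr7_19621_mature had 6, 6 and 9 counts across QHMM and 10, 19 and 20 across STH, the opposite direction. That of chr7_18604_mature had 16, 8 and 12 across QHMM and 5, 7 and 20 across STH, and the breeds overlapped. Since the mature sequence of one is nearly the reverse complement of the other, the 2 rows were not taken as independent of each other.

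The sequence of chr12_26364_mature differs from the reverse-strand motif at 1 letter, so it was not among the motif members. The locus had 25, 11 and 8 counts across QHMM and 39, 46 and 49 across STH (log2 fold change -1.60, SE 0.43, adjusted p = 0.0797 by edgeR). The transfer RNA-like chr14_28712_mature had 23, 8 and 19 counts across QHMM and 60, 21 and 55 across STH (log2 fold change -1.39, SE 0.41, adjusted p = 0.108 by edgeR). The largest log2 fold change of a member not called was 2.94 (SE 0.85, adjusted p = 0.123 by edgeR) at chr20_37401_mature, with 46, 21 and 24 counts across QHMM and 0, 10 and 1 across STH. Its star arm had no count.

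Of the 30 members with the motif, 18 were tested and 1, chr13_28207_mature, was called, against 2.2% of all names. The log2 fold change was negative in 15 of the 18, against 47.7% of all names, with a median of -0.46 and a range from -2.27 to 0.42, against a median of 0.03 over all names. The 3 tested on the reverse strand had a median of -1.56 and the 15 on the forward strand a median of -0.42. The second on the reverse strand, chr16_32155_mature, had 28, 3 and 14 counts across QHMM and 50, 37 and 41 across STH (log2 fold change -1.56, SE 0.48, adjusted p = 0.125 by edgeR). Since several of these loci share sequences, they are not independent, and no test was run over the group.

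None of the 10 highest members was called by edgeR or DESeq2, against 2.2% of all names called by edgeR. In edgeR 0 of the 10 had an unadjusted p under 0.05, against 13.7% of all names. The log2 fold change of chr7_18642_mature was -0.20 (95% interval -0.68 to 0.28, adjusted p = 0.734 by edgeR), an interval that includes 0 and differences of up to 0.68 on the log2 scale. For chr5_14702_mature it was 0.33 with a wide interval from -0.50 to 1.16, and it moved to 0.99 without STH library 3, 0.06 without STH library 1, 0.10 without STH library 2 and 0.18 without QHMM library 3. For chrx_45080_mature it was -0.29 with an interval from -0.89 to 0.31, and moved to -0.61 without QHMM library 2 and -0.13 without QHMM library 3. None of these values passed the threshold. The largest of the 10 was -0.61 at chr24_42184_mature (95% interval -1.30 to 0.07, adjusted p = 0.417 by edgeR), which was -0.29 without STH library 1. The identical loci chr17_32844_mature and chr17_33469_mature had -0.37 and -0.47, with intervals that included 0. At ranks 11 to 21 the breeds did not overlap at 5 of the 11 members, 3 with the higher level in QHMM and 2 in STH, against 17.7% of all names. Neither edgeR (2 at an unadjusted p under 0.05, against 13.7% of all names) nor DESeq2 called any of the 11, so 0 passed. The log2 fold change was 0.85 (SE 0.29, adjusted p = 0.201 by edgeR) at chr11_24896_mature and 0.76 (SE 0.29, adjusted p = 0.242 by edgeR) at chr7_18896_mature. Of the 18 tested members that end in CAG, none was called by edgeR or DESeq2, against 2.2% of all names called by edgeR. With 18 tested, 0 calls is near that share. In edgeR 0 had an unadjusted p under 0.05, against 13.7% of all names. Their median log2 fold change was 0.20, against 0.03 over all names.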

How the data were processed

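Total RNA of longissimus muscle was extracted with Trizol and, per the labels, sequenced as small RNA on an Ion Torrent system. The authors deposited 1 table of raw read counts per miRNA row, with the sequence of each row, for 3 QHMM and 3 STH libraries. The submitters' processing notes name Oar_v3.1 and DESeq. The sources used here do not give the aligner, the hairpin caller or how a read with several matching places was counted. The table gave no start and end for a locus, no genome was used here, and the planned match of members to RefSeq miRNAs was not run. Members and lists were chosen with earlier results of these data known.

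For the test, rows were reduced to 1 per name, the row with the highest total (10430 names). Counts were filtered with filterByExpr, scaled by TMM and fitted with edgeR 4.0.16 (quasi-likelihood, limma 3.58.1, R 4.3.3), and p-values were adjusted by Benjamini and Hochberg over 1274 names. The fit was tested on simulated data. Alternatives were RLE scaling, TMM from other names, no filter, at least 10 counts in every library, DESeq2 1.42.0, a replicate block, rows summed per name, 1 row per sequence, and each library left out. The motif, the ribosomal RNA group, the search for similar rows by edit distance (edlib), and detection with each library left out were added after the data were seen. Duplex energies are from RNAduplex 2.7.2, over the mature and star sequences.

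Members named in the text were the 10 with the highest mean CPM, all those called, the 3 groups of identical sequence with the highest sum, and the 5 with the highest star count. Others named (ranks 11 to 21, those near the threshold, those with the motif, those that end in CAG, and those that resemble other RNAs) were chosen after their values were seen. Total counts of 8062231 to 11282332 per library limit the precision at low counts. The floor of 3 counts covers only the counting error of the QHMM group, since no molecular identifiers are named in the labels.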

Additional observations from a re-analysis of the deposited data

How the results depend on the processing

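Of the 285 values that the named members took under the alternatives, 66 belonged to the 5 called members, and all 66 kept their direction, with 42 past the threshold. Of the other 219, 208 kept their direction and none passed the threshold in edgeR or DESeq2. The 11 that changed sign lay near 0. With 10 or more counts required in each library chr24_41356_mature had -0.014. With 1 library left out, chr13_27435_mature ranged from -0.0027 to 0.52, chr24_41356_mature from -0.12 to 0.20, chr10_22537_mature from -0.37 to 0.084 and chr10_22538_mature from -0.17 to 0.27. The cause was not tested.

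The number of members called was 5, and became 8 with no filter on low counts and 1 where each library had to hold 10 counts or more, so that 4 of the 5 were not tested. Leaving out 1 library gave 1 to 5. Over all names the number was 28, and became 64 with no filter, 8 with 10 or more counts required throughout, 49 with DESeq2 and 16 to 35 with 1 library left out. With 1 library left out, the breed is left with 2 libraries and fewer degrees of freedom. Requiring 10 counts left 94 of the 383 members with a count in every library. The mean share of counts at the members was 0.451% over all rows, 0.627% over 1 row per name and 0.604% over 1 row per sequence, since rows of abundant known miRNAs repeat. With 1 library left out it was 0.437% to 0.462%, and the number of members counted in every library was 401 to 451. The number of members that share a run with a known name was 2, and became 0 for identical sequences and 4 with 15 shared bases at any shift.

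The replicate numbers of the labels gave correlations of 0.061, 0.24 and 0.12 between the same-numbered libraries of the 2 breeds. Each matched its own number best, which is a hint from the data and not from the design, and the numbers were not taken to pair the libraries. With the replicate block, 3 members were called (chr16_31964_mature, chr9_21750_mature and chrx_45982_mature) and 26 names in all. The planned match of members to RefSeq or a genome was not run, since no miRNA sequence or genome was used here.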
